A study of Mus musculus with 2 samples.

Results

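Genes of the cell division cycle were examined in hair follicles of wild-type mice and of mice carrying a dnFGFR2-IIIb transgene. The 42 genes had been chosen by name for their roles, 14 in S phase, when DNA is copied, and 28 in mitosis. Of these, 41 were represented by probe sets annotated to that gene alone, among 18193 genes so represented on the arrays. The remaining one, Ccnb1, which encodes cyclin B1, had no such probe set and was not analysed here.

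The series compared 2 groups with 1 array each, and looked for targets of signalling through FGFR2-IIIb, the IIIb splice form of fibroblast growth factor receptor 2. The wild-type array held total RNA pooled from about 300 follicles, about 100 from each of 3 mice of separate litters at postnatal day 10. The transgenic array held an equal pool from 3 transgenic mice of the same age. The sources used here do not give the promoter driving the transgene, the number of transgenic lines or the strain. Pooling leaves no spread between mice, and the single array per group allows no test, so every difference below describes these 2 RNA pools. In such bulk RNA, fewer dividing cells and less RNA per dividing cell cannot be told apart.

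Hair grows from the matrix at the base of the follicle, whose keratinocytes divide rapidly during the growth phase and then move up to differentiate. Passage through G1 releases E2F transcription factors, which switch on the genes for DNA replication. Later in the cycle the genes for mitosis are switched on through the factor NF-Y at CCAAT boxes and through the MuvB complex, with B-Myb and FOXM1, at a promoter element called the CHR. The RNA level of these genes is widely used as a readout of how many cells in a tissue are dividing.

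Promoters of some members, but not all, hold the letters of the elements tied to these waves of transcription. Those of 6 genes were picked to be shown because each holds at least 1 such element close to the start. They are the 160 bases before the annotated start of transcription, from RefSeq on GRCm38.p6, written 5′ to 3′ on the strand of the gene. Capitals mark the letters searched on both strands: TTTGGCGC or TTTCGCGC for E2F, TTTGAA or TTCGAA for the CHR, and CCAAT. Overlapping matches run together, and a match on the opposite strand appears as its reverse complement, such as ATTGG for CCAAT. The stretches lie at chr8:75109349-75109508 on the plus strand for Mcm5, chr1:128359706-128359865 on the minus strand for Mcm6 and chr11:99024190-99024349 on the minus strand for Top2a. Those of the other genes lie at chr10:69352913-69353072 on the minus strand for Cdk1, chr4:118437344-118437503 on the minus strand for Cdc20 and chr2:164769769-164769928 on the plus strand for Ube2c.
Mcm5: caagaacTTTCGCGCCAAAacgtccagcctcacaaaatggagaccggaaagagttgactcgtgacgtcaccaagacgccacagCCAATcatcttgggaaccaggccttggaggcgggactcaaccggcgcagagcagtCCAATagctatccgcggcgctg
Mcm6: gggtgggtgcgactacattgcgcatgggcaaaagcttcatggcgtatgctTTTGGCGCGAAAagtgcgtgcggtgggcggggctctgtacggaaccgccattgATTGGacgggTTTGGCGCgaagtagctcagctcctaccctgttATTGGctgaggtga
Top2a: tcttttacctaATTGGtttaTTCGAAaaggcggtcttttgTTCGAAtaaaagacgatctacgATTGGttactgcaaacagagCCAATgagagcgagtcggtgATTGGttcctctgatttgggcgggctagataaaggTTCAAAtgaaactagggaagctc
Cdk1: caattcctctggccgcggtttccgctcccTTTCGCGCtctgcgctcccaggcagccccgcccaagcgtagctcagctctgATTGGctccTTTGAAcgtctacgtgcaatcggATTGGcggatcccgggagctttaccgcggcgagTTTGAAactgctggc
Cdc20: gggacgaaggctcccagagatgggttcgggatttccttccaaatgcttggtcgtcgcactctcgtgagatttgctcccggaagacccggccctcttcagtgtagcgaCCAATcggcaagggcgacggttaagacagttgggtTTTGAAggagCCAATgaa
Ube2c: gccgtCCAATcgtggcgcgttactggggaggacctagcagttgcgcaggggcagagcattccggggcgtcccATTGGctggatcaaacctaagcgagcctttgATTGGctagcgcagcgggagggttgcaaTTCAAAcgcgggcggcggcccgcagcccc

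In Mcm6 the E2F letters occurred from 110 bases before the start, as an overlapping match on both strands, and again from 47 bases before it. In Cdc20 the CHR letters began 18 bases before the start, between CCAAT boxes that began 53 and 8 bases before it. In Ube2c the CHR letters began 29 bases before the start, downstream of CCAAT letters that began 57 bases before it. Across the members, 35 of 42 matched the promoter table, which covers 250 bases before to 50 bases after each start. The E2F letters were found in 4 of 13 promoters of S phase genes (30.8%), in 1 of 25 of mitosis genes (4%) and in 267 of all 32851 promoters (0.813%). Both the CHR and the CCAAT letters were found in 3 of the 13 (23.1%), in 19 of the 25 (76%) and in 2472 of all (7.52%). CCAAT, with or without the CHR letters, was found in 76.9%, 88% and 37.4%. Mcm7, Prc1 and Ect2 entered with 2 promoters each, and those of Prc1 and of Ect2 share bases. These matches describe letters in a window and do not show binding.

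Signals are linear intensities in arbitrary units, set by the authors to a common trimmed mean on both arrays. A floor of 10.6, the 40th percentile of both arrays, marks signals that cannot be ordered, and each gene is given by its brightest probe set. Signals of different genes depend on their probes and are not compared. Ratios are transgenic over wild type, mostly as log2, where 1 is a 2-fold difference.

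The cell cycle genes read alike on both arrays. Of the 41 genes, 40 exceeded the floor on both, and 0 of them differed by 2-fold in either direction, beside 368 of 11565 genes (3.18%) over the whole array. One of the 40, Cenpe, passed 1.5-fold (2.5%), beside 13.1% of all genes (6.36% higher and 6.78% lower). Such shares fall with signal, and 6, 15 and 19 members lay in the dim, middle and bright tertiles of signal. Of all genes in those tertiles, 7.44%, 1.32% and 0.778% were 2-fold apart, and 27.5%, 8.69% and 3.19% passed 1.5-fold. At these shares few or none of 40 genes would be 2-fold apart, so the count of 0 does not set the members apart. The median log2 ratio was -0.014 over the 40 members and -0.00033 over all genes. The ratios ran from -0.38 for Mcm6 to 0.64 for Cenpe.

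**Figure D1:**
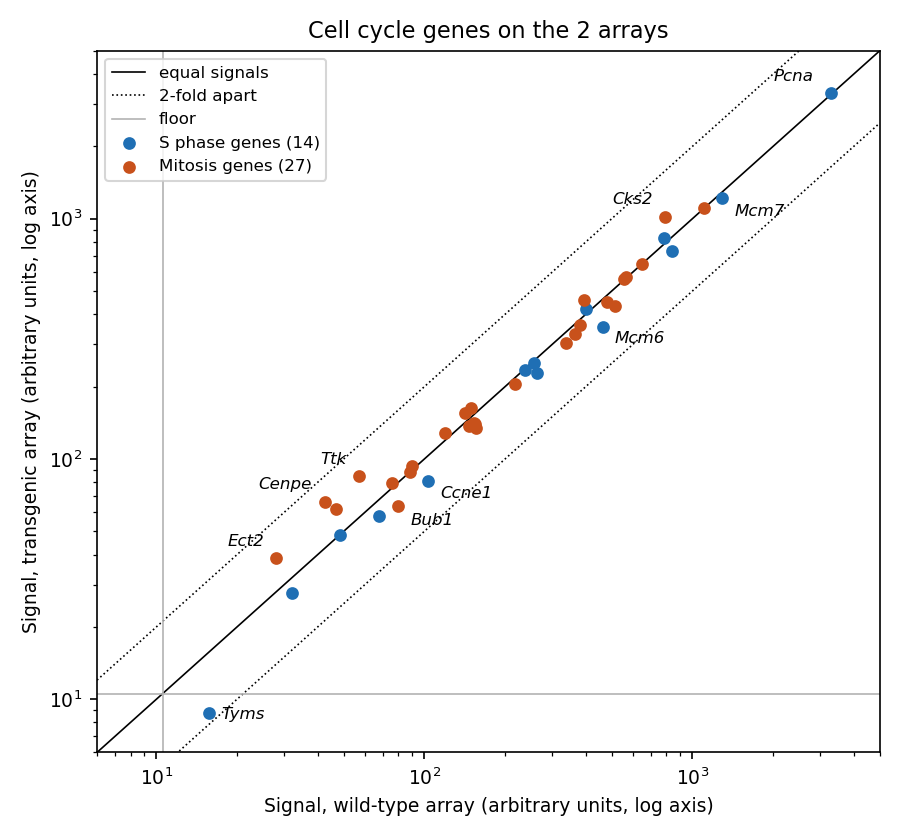
Signal of each of the 41 cell cycle genes on the wild-type array (horizontal, arbitrary units, log axis) and on the transgenic array (vertical, arbitrary units, log axis), 1 point per gene from its brightest probe set, with S phase genes in blue and mitosis genes in orange. The points follow the line of equal signals inside the dotted 2-fold lines, and Tyms lies under the floor (grey) on the transgenic array.

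Among the S phase members, those that prepare replication origins had ratios at or under 1 at their brightest probe sets. Those that make nucleotides or hold the polymerase on DNA had ratios slightly above 1 there, where they were measured. This split by role was not planned, and other replication genes, given below, did not keep it. Of the 13 S phase genes above the floor on both arrays, 3 had a ratio above 1, 9 under 1 and 1 equal deposited signals. Over all genes, 49.8% had a ratio under 1. Their median log2 ratio was -0.075, and their SD between genes was 0.15. Probe sets of the same member differed by more, with a pooled SD of 0.29 over the 24 members that had several.

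The MCM2 to MCM7 proteins form the ring-shaped helicase that is loaded on origins in G1 and unwinds DNA in S phase. Mcm6 read 462 in wild type and 355 in the transgenic pool, a 1.30-fold lower signal and the largest difference among the S phase genes measured on both arrays. At its other probe set above the floor Mcm6 read 166 and 158, a log2 ratio of -0.073, and 11.7% of bright genes lay as far from equality as the -0.38 of the brighter one. Mcm5 read 841 and 731, and Mcm3 read 262 and 228, which gave log2 ratios of -0.20 for each. All 6 ring genes had a ratio under 1 at their brightest probe sets, beside 49.8% of all genes. They did so under 5 of the 6 scalings tried. With equal spiked controls, which lifted the median of all genes to 0.19, 3 were above 1 and 3 under it. The count also depended on the choice of probe sets. With the mean over probe sets, Mcm4 (log2 ratio 0.011) and Mcm5 (0.19) had ratios above 1. Without probe sets matching several transcripts Mcm3 (0.072) did, and the other ring genes stayed under 1 in each case. Relative to the median of all genes, the brightest probe sets of all 6 were lower under each of the 6 scalings. Scalings by a single factor per array can hardly change this, so only quantile and loess scaling, which depend on signal, bear on it.

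The remaining ring subunits differed less, and their probe sets did not always go the same way. Mcm7 read 1288 and 1223, a log2 ratio of -0.075, and its further probe sets ranged from -0.23 to 0.14. Mcm4 read 238 and 236, and its other probe set read 149 and 153. Mcm2 read 257 and 250 with its chosen probe set, a log2 ratio of -0.036. The other probe set of Mcm2 read 262 and 122, a log2 ratio of -1.10, and was the single one of 76 measurable member probe sets that passed 2-fold. The brightest probe sets therefore left out the largest difference in the group, and which probe set follows Mcm2 RNA better was not tested. The probe sets of Mcm3 and Mcm5 were also split: 2 of the 3 further ones of Mcm3 had ratios above 1, at log2 ratios of 0.072 and 0.10, and a dim one of Mcm5 read 12.4 and 23.0.

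Cdc6 loads the MCM ring on origins, and CDC45 joins it to form the active helicase. Cdc6 read 67.8 and 58.1, a log2 ratio of -0.22, and Cdc45 read 48.2 on both arrays. Cyclins E1 and E2 activate CDK2 at the entry into S phase. Ccne2 read 32.2 and 27.6, a log2 ratio of -0.22. Ccne1 read 103 and 80.9 (-0.35) at its brightest probe set but 51.2 and 63.3 (0.31) at the other, so that its direction depended on the probe. Of these 10 genes of cyclin E and origin licensing, 9 had a ratio under 1, beside 49.8% of all genes, and 6 did with equal spiked controls. Setting these 10 apart from the other S phase genes was not planned. Relative to the median of all genes, 9 of the 10 were under it with that scaling too, which a single factor per array can hardly change. The 4 S phase genes whose promoters held the E2F letters, Mcm3, Mcm5, Mcm6 and Mcm7, belong to these 10. Ccne1, Cdc6, Mcm2 and Cdc45 did not hold them, at log2 ratios of -0.35, -0.22, -0.036 and -0.00033. The promoters of Ccne2 and Mcm4 were not searched. A link between the letters and the ratios was not tested. The one mitosis gene that held the E2F letters was Cdk1.

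PCNA is the sliding clamp of the replicative polymerases, and ribonucleotide reductase, built from RRM1 and RRM2, makes the deoxynucleotides. Pcna read 3275 and 3330, a log2 ratio of 0.024. Rrm1 read 402 and 420 (0.062), and its further measurable probe set gave 0.083. Rrm2 read 785 and 829 (0.079), with -0.15 and 0.091 at its further probe sets. These genes, which are among the most used markers of proliferation, differed by at most 5.66% at their brightest probe sets. Tyms, which encodes thymidylate synthase, was near the floor: none of its 4 probe sets read over 15.7, and the brightest read 15.7 and 8.74, so that no ratio can be read from it.

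The mitosis genes were centred on equality, with a median log2 ratio of 0.0095. All 27 exceeded the floor on both arrays, 15 with a ratio above 1 and 12 under it, and their SD between genes was 0.25. With equal medians of the arrays the split was 6 and 21, and with equal spiked controls 24 and 3. Relative to the median of all genes it was between 14 and 15 above under all 6 scalings. Scalings by a single factor per array leave that count almost fixed.

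Mki67 and Top2a, 2 of the general markers of dividing cells, differed by at most 1.37% at their brightest probe sets. Mki67, which encodes the Ki-67 antigen that coats mitotic chromosomes, read 566 in wild type and 571 in the transgenic pool. Top2a, the topoisomerase that untangles sister chromatids, read 554 and 562. Its other probe set above the floor read 65.1 and 65.3. The partners of the anaphase-promoting complex, which ends mitosis, were as close: Cdc20, its activator, read 1109 and 1111, and Ube2c, its ubiquitin-conjugating enzyme, read 646 and 650. Of the further Cdc20 probe sets, one read 523 and 550, and a dim one read 26.8 and 40.3.

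The regulators that drive entry into mitosis went both ways by small amounts. Cdk1, the kinase at the centre of mitotic entry, read 515 and 434, a log2 ratio of -0.25. Its partners were split, with cyclin A2 (Ccna2) at 394 and 458 (0.22, and 0.17 at the other probe set) and cyclin B2 (Ccnb2) at 336 and 305 (-0.14). Cks2, a small subunit that binds CDK1, read 791 and 1019 (0.36) at its brightest probe set but 629 and 531 (-0.24) at the other. Both Cks2 probe sets were bright, where probe sets of the same gene differed with an SD of 0.17. Foxm1, a transcription factor of mitotic genes, read 46.8 and 61.8 (0.40), while its further probe sets gave -0.27 and 0.012. Plk1, a kinase of mitotic entry, read 141 and 155 (0.13), and Aurka, a kinase of the centrosome and spindle, read 147 and 136 (-0.11).

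The kinetochore and its checkpoint held both the highest and the lowest ratios of the mitosis genes. Cenpe, a kinesin that moves chromosomes to the spindle equator, read 42.4 in wild type and 66.3 in the transgenic pool, 1.56-fold apart. Its other probe set, near the floor, read 12.2 and 23.9, in the same direction. Ttk, the kinase that starts the checkpoint, read 56.8 and 84.8 (1.49-fold), and its other probe set lay below the floor in wild type. Bub1, a further checkpoint kinase, went the other way at 79.5 and 63.5 (1.25-fold lower). Bub1b, which encodes the checkpoint protein BUBR1, gave 0.098 with a probe set shared between transcripts and -0.54 with another (123 and 84.5). Mad2l1, the checkpoint protein that holds back CDC20, read 480 and 449 (-0.097), and Cenpa, the centromeric histone, read 381 and 361 (-0.078).

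Among all genes in the same tertile of brightness, 23.3% lay at least as far from equality as Cenpe and 8.92% as far as Ttk. Both values were therefore within what genes of similar signal showed. The chromosomal passenger genes, which correct faulty attachments, had ratios under 1: Aurkb read 153 and 141 (-0.12) and Birc5, which encodes survivin, read 365 and 330 (-0.15). The other Aurkb probe set read 111 and 79.1 (-0.49). With equal spiked controls, which shift all genes alike, the brightest probe sets of both genes were above 1 and under the median of all genes.

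**Figure D2:**
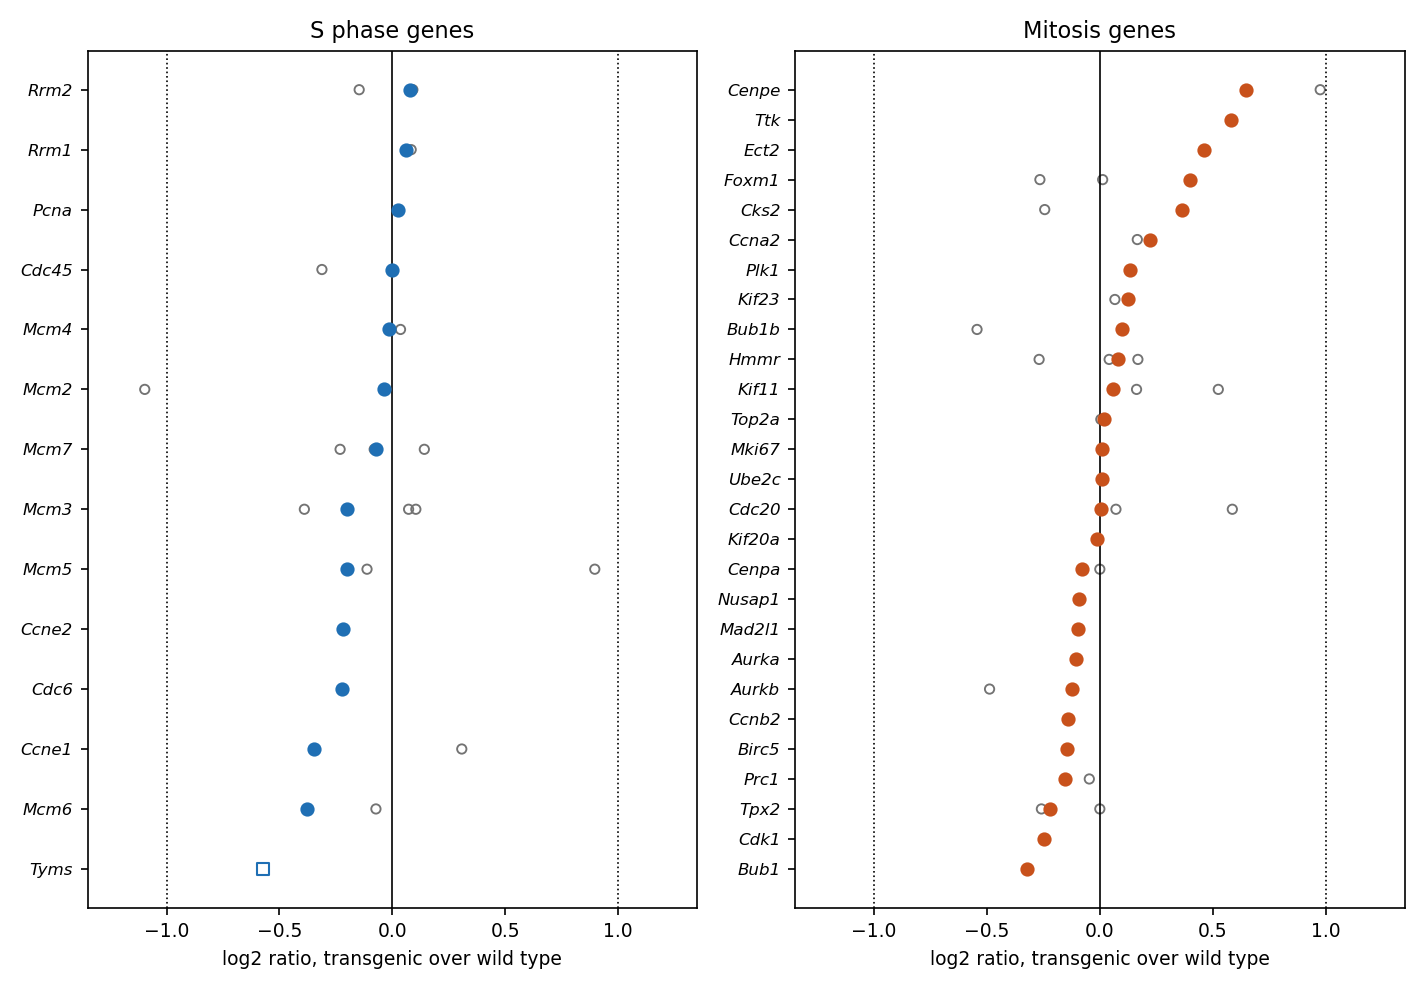
Log2 ratio of the transgenic over the wild-type signal for each S phase gene (left, 14) and mitosis gene (right, 27), where filled points are the brightest probe set and open circles the further probe sets with both signals over the floor. The brightest probe sets lie within the dotted 2-fold lines, from -0.38 for Mcm6 to 0.64 for Cenpe, one open circle of Mcm2 lies beyond at -1.10, and the open square marks Tyms, which was under the floor on 1 array.

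The motors and proteins of the spindle and of cytokinesis mostly read close to equality. Kif11, the motor that pushes spindle poles apart, read 89.5 and 93.1 (0.057), with 0.16 and 0.52 at its further probe sets. Tpx2, a spindle assembly factor, read 156 and 134 (-0.22), and Nusap1, a microtubule-bundling protein, read 218 and 204 (-0.091). Hmmr, a spindle protein, read 75.4 and 79.6 (0.078). Its further probe sets above the floor gave -0.27, 0.041 and 0.17, and the mean over its probe sets gave -0.093. In cytokinesis, Kif20a read 88.6 and 87.8, Kif23 read 149 and 163, and Prc1, which bundles the central spindle, read 155 and 139. Ect2, which activates RhoA at the cleavage furrow, read 28.0 and 38.6 (0.46), near the dim end of the range. All 4 of the largest ratios above 1 among the mitosis genes, those of Cenpe, Ttk, Ect2 and Foxm1, had a mean signal under 100.

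That cut of 100 was chosen after the values were seen. Under it, 6 of 8 mitosis genes had a ratio above 1, with a median of 0.24, beside 52.0% of the 5045 genes with such signals and a median of 0.021. The 4 S phase genes under it that exceeded the floor on both arrays did not go that way: 0 had a ratio above 1, 3 were under 1 and 1 was equal, with a median of -0.22. Above it, 9 of 19 mitosis genes had a ratio above 1, with a median of -0.078, beside 48.2% of 6520 genes and a median of -0.0088. Probe sets of one gene also differed most where signals were dim. Their SD was 0.51 among dim genes, 0.29 at middle and 0.17 at high signal, by tertiles.

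Brightness was taken into account by reading the members beside all genes of the same tertile. The 6 members in the dim tertile had a median absolute log2 ratio of 0.31, beside 0.36 for all genes there. The 15 in the middle tertile had 0.12 beside 0.21, and the 19 in the bright tertile 0.079 beside 0.14. Members were thus no farther from equality than other genes in any tertile. Further probe sets that exceeded the floor on each array existed for 24 members: for 11 of them every such probe set kept the direction of the brightest, for 10 at least 1 opposed it, and for 3 (Cdc45, Cenpa and Tpx2) one of the values compared was equal on both arrays.

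The S phase and mitosis groups differed from each other by 0.084 in median log2 ratio, mitosis being the higher. This difference does not change with any scaling by a single factor per array. It was 0.028 when each gene was the mean of its probe sets, and it was not tested.

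Further genes of the same processes, taken from lists of other members of each pathway, are given by their counts, to be read beside the 3.18% of all genes that were 2-fold apart. Of 42 other replication genes that could be compared, 0 were 2-fold apart, 22 had a ratio above 1 and 20 under it, and the median was 0.018. The farthest were Pola1, a subunit of the polymerase that starts new strands (30.6 and 51.0, log2 ratio 0.74), Orc5 of the origin recognition complex (157 and 106, -0.56), Tk1, thymidine kinase (313 and 212, -0.56), and Timeless, of the replication fork (75.4 and 109, 0.54). The wider replication list thus did not share the ratios under 1 that the MCM genes had at their brightest probe sets. Nor did it keep the split by role seen among the members. Of the origin recognition genes, Orc1 (0.37), Orc2 (0.36) and Orc4 (0.25) had ratios above 1. Orc3 (-0.073), Orc5 and Orc6 (-0.24) had ratios under it. Tk1 and Dut (-0.16), both of nucleotide supply, had ratios under 1.

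Of 54 other mitosis genes, 2 were 2-fold higher (3.7%) and 1 lower (1.85%), 5.56% together, beside 1.6% and 1.58% of all genes. The median was -0.0068. Oip5, which helps to place CENP-A at centromeres, read 12.4 and 45.1, with its wild-type signal just above the floor. Cenpi, of the inner kinetochore, read 23.2 and 53.7. Gtse1, a microtubule-associated protein, read 42.4 and 19.6, and Ccnf, which encodes cyclin F, read 90.0 and 45.5, just under 2-fold. No further measurable probe set was there for comparison in any of these 4 genes. Of 18 genes of condensin and cohesin, the rings that fold and hold chromosomes, 0 were 2-fold apart, and the median was 0.034. Ncapd3 had the largest difference (117 and 170), but its further probe sets gave -0.26 and -0.20. Nipbl, which loads cohesin, read 229 and 304, Wapl, which releases it, read 401 and 506, and Esco2, which acetylates it, read 30.8 and 22.8.

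In a list of 16 genes named G1 drivers, 0 were 2-fold apart, with 6 ratios above 1, 10 under it and a median of -0.051. Not all of them act upstream of S phase: Cdc25c and Mybl2 belong with mitosis, and Cdc25c was also counted among the other mitosis genes. Skp2, which marks the inhibitor p27 for destruction, read 78.6 and 150 (0.93), but its 5 further probe sets ranged from -0.32 to 0.80. Cdc25c, a phosphatase that activates CDK1, read 57.8 and 38.1 (-0.60, and -0.67 at the other probe set), and Mybl2, which encodes B-Myb, read 163 and 116 (-0.49) but 0.0053 at its other probe set. Cdc25b, of the same phosphatase family, read 56.1 and 69.9. Among 16 E2F and pocket protein genes the median was 0.039. E2f4 read 22.8 and 42.8 (0.91), E2f8 82.1 and 108 (0.40), E2f3 199 and 247 (0.31, and 0.92 at its other probe set), and E2f6 70.0 and 85.9 (0.29).

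Of 17 CDK inhibitors and other brakes, 0 were 2-fold apart, and the median was 0.089. Cdkn1a, which encodes the inhibitor p21, was named as one of the brightest of its list and read 3341 and 3553 (0.089). Cdkn1c, the inhibitor p57, read 64.2 and 39.3 (-0.71). The antiproliferative genes Btg1 and Btg2 went opposite ways, at 3047 and 2437 (-0.32) and at 197 and 280 (0.51). Fbxo5, an inhibitor of the anaphase-promoting complex, read 73.0 and 91.3 (0.32).

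**Figure D3:**
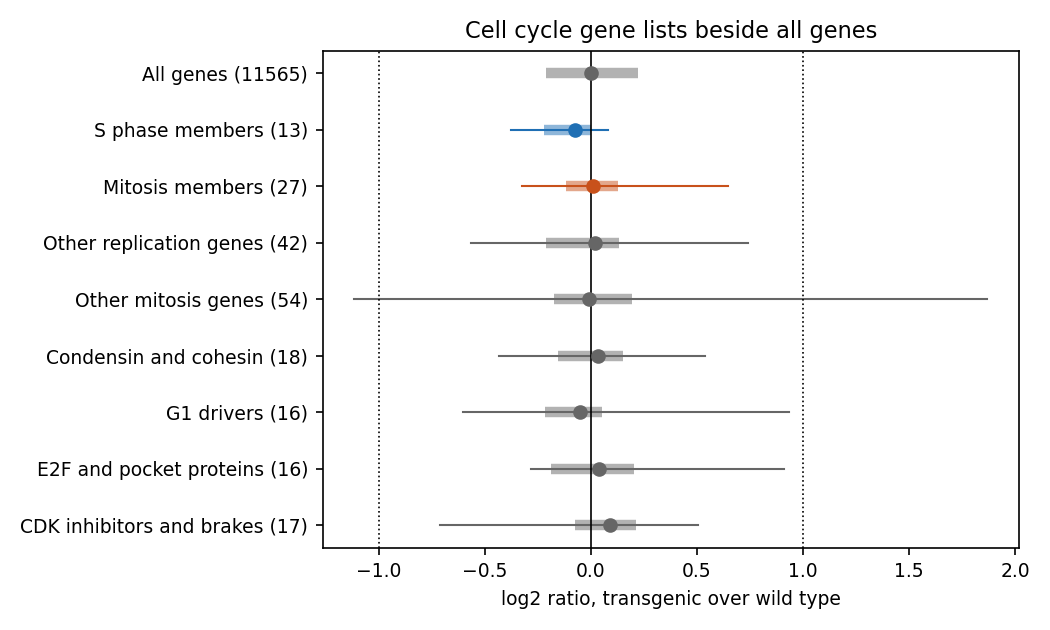
Log2 ratios of the transgenic over the wild-type signal for 9 gene lists, with the number of genes above the floor on both arrays in brackets; points are medians, thick bars the middle 50% of genes and thin lines the full range, which is not drawn for all genes. List medians lie between -0.075 for the S phase genes and 0.089 for the CDK inhibitors and brakes, close to that of all genes.

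The absolute position of these medians rests on how the arrays were scaled. With equal medians the S phase and mitosis medians were -0.22 and -0.13 where that of all genes was -0.14, and with equal spiked controls they were 0.12 and 0.20 where that of all genes was 0.19. Relative to all genes the S phase median stayed between -0.15 and -0.038 and the mitosis median between -0.028 and 0.050 under all alternatives tried. Scalings by a single factor per array hardly move these relative values by construction. With quantile and loess scaling, which could move them, they were -0.043 and -0.062 for S phase and 0.050 and 0.042 for mitosis. A change shared by all transcripts cannot be seen in values scaled in this way.

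**Figure D4:**
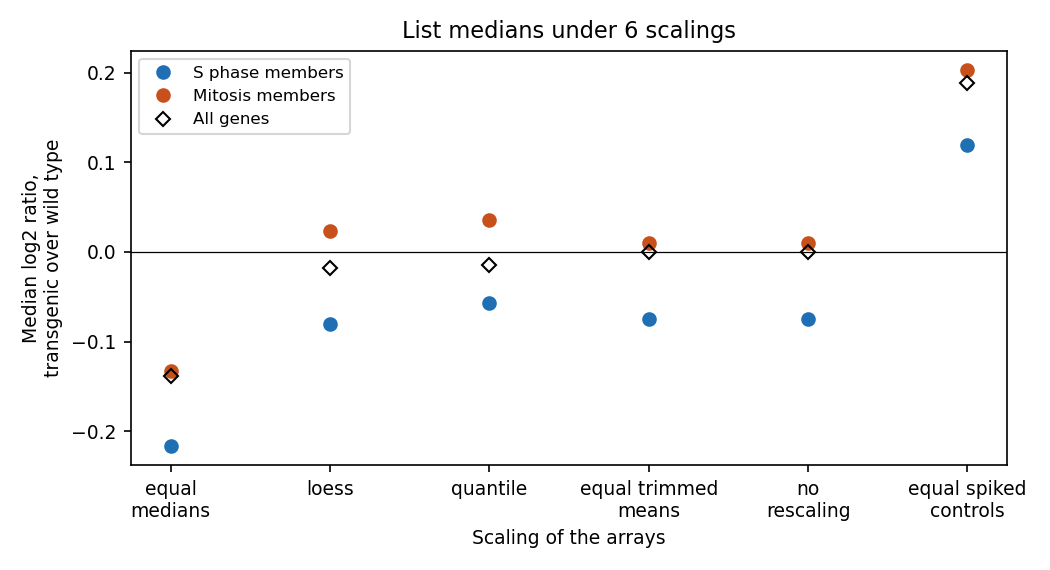
Median log2 ratio, transgenic over wild type (vertical), of the S phase genes (blue), the mitosis genes (orange) and all genes (open diamonds) under 6 scalings of the arrays (horizontal). All medians move together, and the S phase median lies below that of all genes under each scaling. Scalings by a single factor per array leave that order almost fixed.

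The RNA came from whole follicles, so the signal cannot be assigned to the matrix or to any other dividing layer. Of 13 markers of matrix and precortex, 12 were measured, and all 12 exceeded the floor on both arrays. A ratio above 1 was seen for 9 and under 1 for 3, beside 49.8% of all genes above 1 and 49.8% under it. Their median was 0.042 and their summed signal 27265 and 29371. With equal medians of the arrays, 4 of these markers had a ratio above 1 and 8 under it. Their median was then -0.0998, where that of all genes was -0.14. With equal spiked controls, 11 of these markers were above 1 and 1 under it. The brightest were Krt31 at 11745 and 12004 and Krt35 at 6029 and 7275 (0.27). Shh read 360 and 470 (0.38), the largest ratio of the list, and Dlx2 read 293 and 226 (-0.37), the smallest. In other layers, 9 of 11 outer root sheath and bulge markers had ratios under 1, beside 49.8% of all genes. Their median was -0.21, with a summed signal of 14636 and 12315. Of their bright keratins, Krt14 read 4496 and 3974, and Krt5 read 3963 and 3636. The 10 melanocyte markers had a median of -0.21 (summed 14796 and 13624), with Dct at 4486 and 4630 and Pmel at 3297 and 2990. With equal spiked controls, which shift all genes alike, both medians were near 0, at -0.012 and -0.018, and lay below the 0.19 of all genes. The 10 fibroblast markers had a median of -0.041 (summed 3572 and 4141; Dcn 990 and 1597, Sparc 907 and 712). Of 8 epidermal markers measured, 5 exceeded the floor on both arrays, with a median of 0.59 and a summed signal of 3586 and 1398 set by Ivl (3125 and 686), while Krtdap read 183 and 259. Immune markers were dim, with 6 of 14 above the floor on both arrays (summed 305 and 384; Csf1r 73.7 and 75.2, Cd68 52.0 and 45.5), as were endothelial ones, with 3 of 7 (summed 134 and 155; Cldn5 41.6 and 27.5, Tek 35.6 and 31.7). The part of these shifts in the cell cycle values was not tested.

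The pools also differed in sex-linked transcripts. Xist read 354 and 1151, and the Y-linked Eif2s3y read 192 in the wild-type pool and below the floor in the transgenic one, so that sex and genotype cannot be told apart here. RNA integrity was close on the 2 arrays: the 3′ control probe set of beta-actin gave 1.89 and 2.06 times the signal of the 5′ one, and that of Gapdh 0.796 and 0.852 times. Fgfr2 itself read 198 and 370 at its brightest probe set, and whether that probe set detects the transgene is not known here.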

How the data were processed

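The deposited values were 1 linear intensity per probe set of an Affymetrix Mouse430_2 array for each of 2 pooled RNA samples, which the authors had scaled to a 2% trimmed mean of 100 per array, as the values show. The summary algorithm is not given in the sources used here. Both arrays were rescaled to an equal trimmed mean over the 45037 non-control probe sets, and 34945 of these with 1 gene symbol in the platform annotation were used. Gene identifiers of all 41 measured members matched the RefSeq symbols (GRCm38.p6). Signals under the floor, the 40th percentile, were set to it for ratios. Signals equal within 0.0005 on the log2 scale after rescaling were counted as equal. Calls required both signals above the floor and a 2-fold difference.

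The spread between probe sets is the pooled SD of log2 ratios of probe sets of the same gene in the same tertile of signal. It was taken within these 2 arrays and can also hold differences between transcripts of one gene. Variation between arrays or mice is not in it, and the number of arrays limits the precision. The genes named in full were the 5 of each phase with the highest signal and the 5 with the largest ratio, members near the floor or with probe sets going opposite ways, the 4 largest ratios of each pathway list and the 2 brightest markers of each cell type list. Other members, and Shh and Dlx2, were named after their values were seen. The members, lists and alternatives were chosen with earlier results of these data known, and Ckap4 was dropped from a list because its role was wrong. Computations used Python 3.11.15, numpy 2.4.6, pandas 2.3.3, scipy 1.17.1 and statsmodels 0.14.6, and were tested on simulated data. The alternatives were other scalings, floors, fold thresholds and probe set rules.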

Additional observations from a re-analysis of the deposited data

How the results depend on the processing

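With equal medians of the arrays the median log2 ratio was -0.22 for the S phase genes and -0.13 for the mitosis genes, and with equal spiked controls it was 0.12 and 0.20, since each scaling moved all genes (to -0.14 and 0.19). The other 10 alternatives left both medians within the error expected from the spread between probe sets (0.11 and 0.077). The difference between the groups ran from 0.028 to 0.15 and stayed within its error of 0.14 under all 12. That error exceeds the difference of 0.084 itself, so staying within it does not show that the difference is stable. The S phase median of -0.075 was also smaller in size than its error. At a threshold of 1.5-fold 1 member was higher (Cenpe) and 0 lower, and counting probe sets in place of genes gave 1 lower (Mcm2). All other settings gave 0 members at 2-fold. Of 445 values of single members under the alternatives, 31 moved by more than the spread between probe sets, 19 of them with equal spiked controls, 8 with the mean over probe sets and 4 without probe sets matching several transcripts. No paired analysis was possible because each group has 1 array. Dim members such as Tyms, Ect2 and Ccne2 are limited by their signal over background.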

Other observations

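Genes of the DNA damage response, which acts beside replication, were looked at in a list chosen after the members' values were seen. Of 22 measured genes, 21 exceeded the floor on both arrays, 12 with a ratio above 1 and 9 under it, 0 were 2-fold apart, and the median log2 ratio was 0.0083. Nbn, of the complex that senses double-strand breaks, had the largest difference (67.4 in wild type and 111 in the transgenic pool, a log2 ratio of 0.72), and Rad50, a partner in that complex, read 57.4 and 77.8 (0.44). Exo1, an exonuclease of mismatch repair, read 31.5 and 23.0 (-0.45), and Palb2, which links BRCA1 and BRCA2, read 24.0 and 17.8 (-0.43). Bright genes of the list were Usp1, a deubiquitinase (578 and 762, 0.40, but -0.045 and 0.077 at its further probe sets), and Parp1, which marks DNA breaks (242 and 281, 0.21, but -0.64 and -0.30 at its further probe sets).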
